A study of Salmo salar with 59 samples.

Results

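The genes described here were the 103 array probes that the study listed among its testis differences and assigned to apoptosis (84 probes) or autophagy (19 probes), out of 42386 probes on the Atlantic salmon array. They were taken by their identifiers from the part of the supplementary gene list at hand, where 120 lines carried either function and gave 103 distinct identifiers. None of them was in the second supplementary list, so none was left out. The study had chosen these probes by the difference between pubertal and immature testes, and in that comparison their values are given as a description without a test. Each probe was followed in testis, pituitary and adipose tissue of male Atlantic salmon post-smolts kept in brackish water. Fish were sampled at the end of a trial with continuous light (group A), increasing light (group B) or decreasing light (groups D and E), and group E alone was given a low-fat feed.

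Pubertal testes came from 6 fish, labelled as stage III (fish 213), stage IV (fish 184, 190, 211 and 245) and stage V (fish 202). By histology fish 211 and 245 had spermatozoa like fish 202, so that for these fish the sample labels and the histology differ, and the groups follow the labels. Immature testes, labelled stage I, came from 14 fish. Fish 184, 190 and 245 belonged to group A and fish 202, 211 and 213 to group B. Of the immature fish, 188 and 250 belonged to group A, 160 and 203 to group B, and 5 fish each to groups D and E. All pubertal fish were therefore under continuous or increasing light, and in the testis and the pituitary the effects of maturity and of groups D and E could not be told apart when all immature fish were used. Pituitaries came from the same 20 fish. Adipose tissue came from 6 pubertal and 4 immature fish of groups A and B, 5 fish of group D and 4 fish of group E, 1 of which (fish 211 of group E) had no testis array. The labels also mark adipose tissue of group E as low and of group D as high in immune activity.

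Apoptosis is a programmed form of cell death in which proteins of the BCL2 family control the permeability of the mitochondrial outer membrane and caspases, a family of proteases, dismantle the cell. Autophagy encloses cytoplasm in a double membrane and delivers it to the lysosome; ATG proteins build and close that membrane. In the vertebrate testis many germ cells die by apoptosis during spermatogenesis, and Sertoli cells engulf the remains of dying germ cells and the cytoplasm shed by spermatids.

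Levels are given as log2 intensity relative to the 75th percentile of the same array, so that 0 is that percentile and one unit is a doubling. They can be compared between arrays for 1 probe, not between probes. Testis arrays had 65.6% to 86.6% of spots well above background, pituitary arrays 61.6% to 84.3% and adipose arrays 51.1% to 79.4%. Several arrays stood apart. The pituitary array of fish 184 had a summed level (log2 of the summed intensity) of pituitary hormone genes of −1.65, against 9.62 to 11 on the other pituitary arrays, and it was left out of the pituitary fits. The adipose array of fish 202 had a summed level of testis markers of 4.66, where the other adipose arrays of groups A and B lay between −1.77 and 0.788, and the adipose array of fish 236 of group E had a summed level of pituitary markers of 5.99. Adiponectin, an adipose marker, did not set adipose tissue apart: probe adipoqb was well above background on at most 1 array of any group, and probe adipoqa on 3 of 4 adipose arrays of immature fish of groups A and B but also on 11 of 14 pituitary arrays of immature fish. Another adipose marker, fabp4, averaged 3.38 to 3.89 in the adipose groups but 4.03 in immature and 7.06 in pubertal testes. In contrast, perilipin 1, a lipid droplet protein, was high in adipose tissue. The summed adipose markers lay between 6.79 and 7.7 in pubertal testes and between 6.93 and 8.46 in adipose tissue of group D. In pubertal testes the anti-Müllerian hormone gene amh, made by Sertoli cells, averaged 1.45 against 5.48 in immature testes. The germ cell genes were divided: ddx4 averaged 7.88 against 6.63, and dnd1 −1.91 against −0.252.

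The members, chosen by this contrast, were more often lower than higher in pubertal testis. Genes of the same pathways outside the list, given further on, were more often called higher than lower, as were all probes (31.9% and 27.2%). Those genes were taken without the members, which this contrast had chosen, so nothing is read from the opposite directions. Of the 103 probes, 38 were higher and 65 lower in pubertal than in immature testes, and 96 differed by more than 0.8 (1.741-fold), 36 higher and 60 lower. Of all probes 33% were higher and 28.2% lower by more than this limit. In 62 members, 23 higher and 39 lower, the 6 pubertal fish did not overlap the 14 immature fish, against 25.1% of all probes (12.9% higher and 12.1% lower). Called at an adjusted p under 0.05 and a difference beyond 0.8 were 59.1% of all probes, 31.9% higher and 27.2% lower. Since this contrast chose the probes, nothing is read from these counts. The median log2-ER (the mean of pubertal minus the mean of immature testes) was −1.27 for the 103 probes and 0.294 for all probes tested, and single probes ranged from −4.08 to 3.02. The median of the members was −1.33 among fish scanned on day 1, −0.475 on day 4 (1 pubertal and 3 immature fish), and −0.889 with normexp background correction with an offset, which lowers ratios of dim probes by construction. With normexp 18 of the 51 testis differences chosen by the naming rule were smaller by over 1.5 times, among them heme-binding protein 2-like (−1.94), caspase-6 (−1.75), dram1-like (−1.32), caspase-2 LOC106605831 (1.28) and rubcnl (−0.889), and all 51 kept their sign. The autophagy probes had a median of −1.95 with 3 of 19 higher, and the apoptosis probes −1.10 with 35 of 84 higher. The tissue was bulk, and fewer cells of a type cannot be told apart from less RNA per cell. Genes of other cell types moved with these values. The summed level of 5 leukocyte probes (4 of 11 listed genes) lay between 1.40 and 3.14 in pubertal testes and between 4.80 and 6.41 in immature testes. It came mostly from cd74a, which averaged 2.28 and 5.72, and all 5 probes were called lower. The summed level of 2 meiotic genes (sycp3 and spo11) lay between 2.45 and 5.73 in pubertal and 0.687 and 1.25 in immature testes. Of 5 listed proliferation genes 3 were found (top2a, mcm2 and ccnb1), and all 3 were called higher. Their summed level lay between 6.53 and 7.43 in pubertal and 3.9 and 5.55 in immature testes. The part of these markers in the members' values was not tested.

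**Figure D1:**
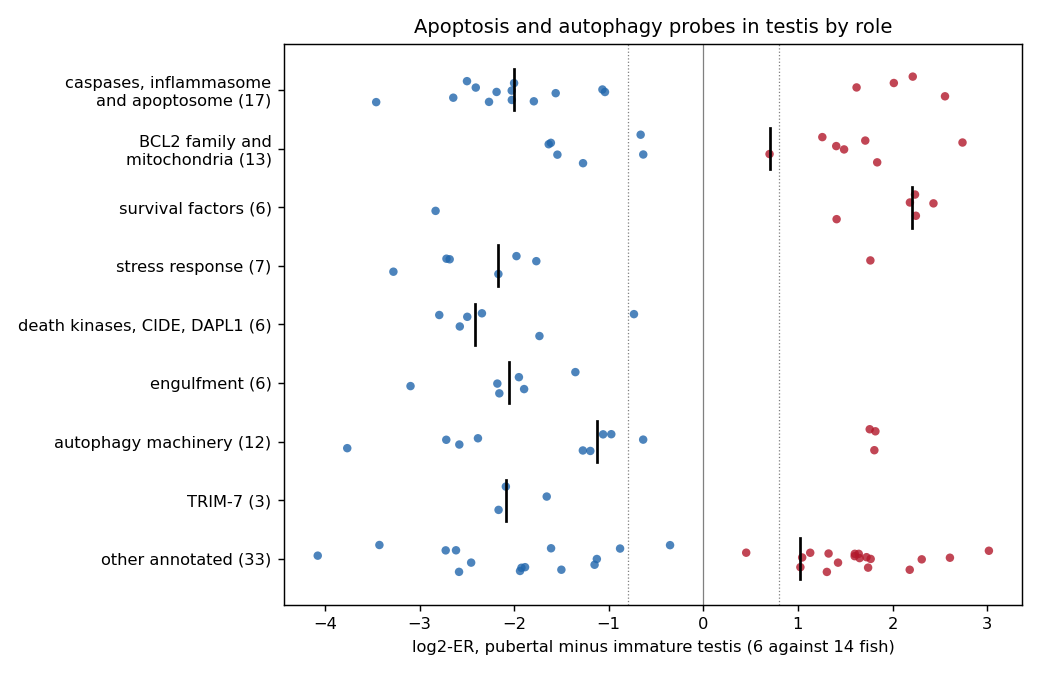
Log2-ER (pubertal minus immature testis, horizontal axis) of the 103 probes, 1 point per probe, in rows by the role of the gene. Vertical bars are the median of a role and dotted lines mark 0.8 in either direction. Engulfment, death protein and TRIM probes all lay below 0, and 5 of 6 survival factors lay above it.

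The roles are described without a test between them. Among caspases and their platforms 4 of 17 probes were higher, with a median of −2.0. The 4 were the 3 probes for caspase-2, an initiator caspase, and PIDD1-like, the scaffold on which caspase-2 is activated. Caspase-2 (LOC106605831) had levels of −1.81, −0.70 and −0.38 (lowest, median and highest) in pubertal and −4.06, −3.51 and −2.85 in immature testes, a log2-ER of 2.56 (5.88-fold). Caspase-2-like LOC106605738 had levels of −0.85, 0.33 and 0.54 in pubertal and −2.32, −2.05 and −1.35 in immature testes. For caspase-2-like LOC106576719 the levels were 1.76, 1.95 and 2.57 in pubertal and −0.13, 0.33 and 1.20 in immature testes. None of the caspase-2 probes overlapped between the groups. PIDD1-like had levels of −1.65, −1.52 and 0.38 in pubertal and −4.51, −3.29 and −2.20 in immature testes (log2-ER 2.21).

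The other 13 caspase and platform probes were lower in pubertal testes. The largest difference was in caspase-6, an executioner caspase, with levels of −5.10, −3.47 and −2.71 in pubertal and −0.67, −0.35 and 0.61 in immature testes, a log2-ER of −3.46 (11-fold lower) without overlap. CFLAR, a caspase-8 relative without protease activity that blocks death receptor signals, differed by −2.41, and Apaf-1, the scaffold of the apoptosome, by −2.03 with overlapping groups. Genes of inflammasomes, which activate inflammatory caspases, were also lower. The adaptor ASC-like differed by −2.19 (LOC106605228) and −2.02 (LOC106582385), the sensor CARD8-like by −2.50 and CARD8 by −1.04, and caspase-1-like by −1.56 (LOC106612902) and −1.07 (LOC106591535). CARD10-like, a scaffold of NF-kB signalling, differed by −2.27, and a protein with a CARD that binds bcl10 by −2.64.

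BCL2 family and mitochondrial genes were divided, 7 higher and 6 lower, with a median of 0.70. The BH3-only gene bada, which promotes death by binding anti-apoptotic relatives, had levels of 0.50, 1.26 and 2.16 in pubertal and −1.87, −1.49 and −1.06 in immature testes, a log2-ER of 2.74 (6.68-fold). All 3 BAX-like probes, named after the pore-forming protein of mitochondrial apoptosis, were higher, by 1.26 (LOC106600761, with overlap), 1.41 (LOC106607327) and 1.84 (LOC106601126). The anti-apoptotic NR-13 differed by 1.49 and the mitochondrial flavoprotein gene aifm1 by 1.71. In the opposite direction lay bcl2l11, which encodes the BH3-only protein BIM (−1.64), the BAX relative boka (−1.27), and diabloa, whose product releases caspases from their inhibitors (−0.66). The mitophagy receptor genes bnip3a LOC106579879 and bnip3-like differed by −1.61 and −1.54, and bnip3a LOC100194666 by −0.64, all 3 with overlap.

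Of 6 survival factors 5 were higher, with a median of 2.21. Bax inhibitor 1, a membrane protein of the endoplasmic reticulum, differed by 2.24, faim2a (lifeguard 2) by 2.25, faima (Fas apoptotic inhibitory molecule) by 2.18 and the HSP70 cochaperone bag5-like by 2.43. These 4 overlapped between the groups, whereas api5, higher by 1.41, did not. The survival kinase pim-2 was the exception at −2.83.

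Of the 7 stress response probes (ASPP1, dram1-like, phlda2 and ddit4-like), 6 were lower and none of the 7 overlapped. All 4 probes for ASPP1, which promotes the transcription of death genes, were lower, with log2-ER of −2.72 (LOC106601027), −2.68 (LOC106611188), −2.17 (LOC106607150) and −1.77 (LOC106576990). Dram1-like, a lysosomal membrane protein that promotes autophagy in mammals, had levels of −5.20, −4.78 and −3.45 in pubertal and −1.93, −1.31 and −0.90 in immature testes (log2-ER −3.28, 9.69-fold lower). The pleckstrin homology gene phlda2 differed by −1.98. The exception was ddit4-like, an inhibitor of the growth kinase complex mTORC1, at 1.77.

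All 6 death protein probes and all 6 engulfment probes were lower. Dapl1, death-associated protein-like 1, had levels of 0.96, 1.48 and 3.27 in pubertal and 4.16, 4.58 and 4.80 in immature testes (log2-ER −2.79), and its relative dal1b differed by −2.50. The calmodulin-regulated kinase dapk2-like differed by −2.58 and its relative stk17a-like by −1.73, and the lipid droplet genes cideb and cidea by −2.34 and −0.73. Engulfment genes, whose products take up dead cells, had a median of −2.05 and no overlap in any of the 6 probes. Elmo1 LOC106583331, a regulator of the small GTPase Rac at the phagocytic cup, had levels of −1.97, −1.50 and −0.72 in pubertal and 1.36, 1.62 and 2.15 in immature testes, a log2-ER of −3.10 (8.55-fold lower). The other elmo1 probes differed by −1.95 (elmo1) and −1.90 (LOC106570440). The study's list gives these 2 probes the same locus, LOC106570440, and their signals differed by a median of only 0.053 over all arrays. They are counted here as 2 probes but may stand for 1 gene, and whether they report the same transcripts was not tested. The adaptor gulp1a differed by −2.18 (LOC106575714) and −1.35, and the scavenger receptor stabilin-1-like by −2.16.

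Autophagy machinery was lower in 9 of 12 probes, with a median of −1.13. Rubcnl, which promotes autophagosome maturation in mammals, had levels of −7.33, −5.56 and −4.66 in pubertal and −2.92, −1.89 and −0.98 in immature testes (log2-ER −3.77). It was well above background in 2 of 6 pubertal testes and differed by −0.889 with normexp correction, so that the size of its difference is not settled. Vmp1, a membrane protein of the endoplasmic reticulum needed to form autophagosomes, had levels of −0.85, −0.12 and 0.59 in pubertal and 2.06, 2.46 and 3.04 in immature testes (log2-ER −2.72). Tecpr1a, a tether between autophagosome and lysosome, differed by −2.58, tmem59l by −2.38, and the autophagy receptor optn by −1.27. The 3 TRIM-7 probes, of a ubiquitin ligase family, differed by −2.17, −2.09 and −1.66.

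The ATG4 and ATG9A probes lay on both sides of 0. ATG4 proteases trim the ubiquitin-like proteins that coat the autophagosome. Atg4a was lower in pubertal testes (log2-ER −1.20) with levels of −0.68, −0.40 and −0.03 in pubertal and 0.06, 0.91 and 1.27 in immature testes, and atg4c differed by −1.06 with overlap. ATG4D-like was higher, with levels of −0.94, 0.46 and 0.87 in pubertal and −2.40, −1.66 and −1.28 in immature testes (log2-ER 1.82, 3.53-fold). ATG9A is the membrane protein of the vesicles that seed the autophagosome. Probes LOC106574532 and LOC106575328 differed by −0.97 and −0.64, and probes LOC106569346 and LOC106599848 by 1.76 and 1.81. Within each of these pairs the probes differed by a median of 0.228 and 0.21 over all arrays, and whether they share transcripts was not tested.

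**Figure D2:**
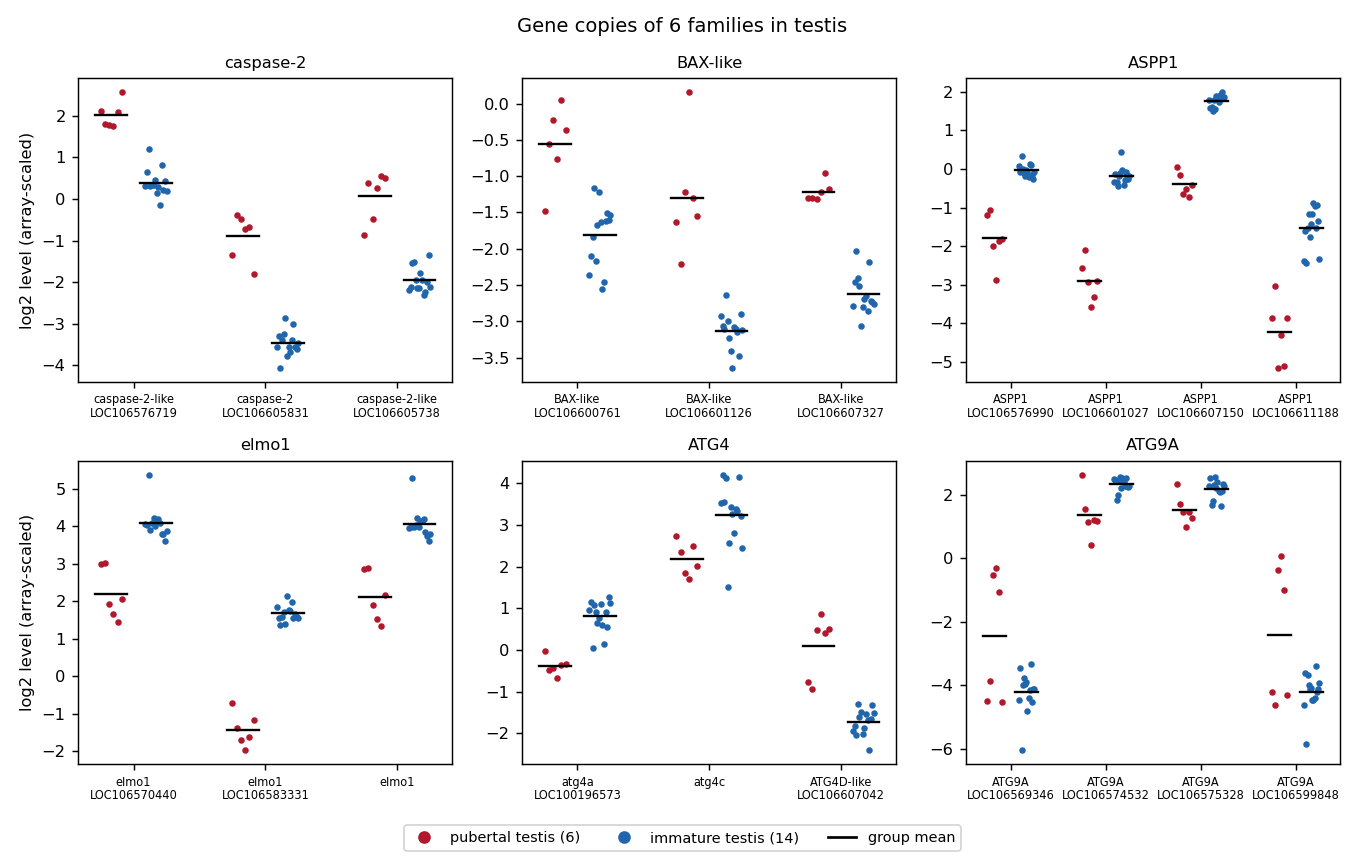
Level (log2 relative to the 75th percentile of the array, vertical axis) of 6 gene families in pubertal (left) and immature (right) testes, 1 point per fish, with a bar at the mean. Caspase-2 and BAX-like probes were higher and ASPP1 and elmo1 probes lower in pubertal fish, whereas ATG4 and ATG9A probes went in both directions.

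The remaining 33 probes had mixed functions, with 18 higher and a median of 1.03. The largest difference of all members was in heme-binding protein 2-like, with levels of −5.52, −4.53 and −1.86 in pubertal and −0.89, 0.29 and 0.82 in immature testes (log2-ER −4.08, 16.9-fold lower). The largest difference in the other direction was in skp2-like LOC106568170, with levels of 3.54, 4.13 and 5.0 in pubertal and 0.22, 1.20 and 2.43 in immature testes (log2-ER 3.02, 8.11-fold). SKP2 is the substrate receptor of a ubiquitin ligase that removes inhibitors of the cell cycle. The other 2 probes for it were higher as well, skp2 by 2.31 and skp2-like LOC106599589 by 2.18. Sgo1, which protects cohesin at the centromere and acts in cell division rather than in cell death, was higher by 2.61. CD109 (−2.62), the immune checkpoint ligand pdl1 (−2.58), and bcl6b (−2.46), a repressor known in mice from spermatogonial stem cells, were lower. Near the limit of 0.8, ATG9A LOC106574532 (−0.97) lay just beyond it, and cidea (−0.73) and bnip2-like (0.70) just within it.

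Other genes of the same pathways, taken by symbol from a list of 27 apoptosis and 34 autophagy genes that left out the members, could be found for 7 apoptosis genes (9 probes) and 21 autophagy genes (23 probes). In the testis 5 of the apoptosis probes were called higher and 1 lower, against 31.9% and 27.2% of all probes. The survivin gene birc5a was higher by 3.02, whereas the executioner caspase casp3a was lower (−0.85). Among the 23 autophagy probes 7 were called higher and 4 lower, and their median difference was 0.149 against 0.294 for all probes. The lower ones were gabarapl2 (−2.57) and map1lc3b (−1.44), which encode coat proteins of the autophagosome, the cargo receptor sqstm1 (−2.11) and tfeb (−1.41), a transcription factor for lysosome and autophagy genes. Of the other coat protein genes gabarapa was called higher (1.64), and map1lc3a was at 0.15 and not called. The conjugation genes atg3 (1.16), atg5 (1.15) and atg7 (0.83) were higher.

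The pubertal fish varied more than the immature fish. The SD was larger among pubertal testes in 81 of 103 probes, and it was above 1 in 18 probes among pubertal and in 0 among immature testes. This was not particular to the members. Their median SD was 0.583 in pubertal and 0.376 in immature testes, and that of all probes was 0.65 and 0.437. The widest spread was in srrm1-like, named after a splicing coactivator (SD 3.62 in pubertal and 0.58 in immature testes). Its level was −5.57 in fish 213, −5.49 in fish 184, −4.84 in fish 190, 0.30 in fish 211, 1.31 in fish 245 and 2.05 in fish 202, whereas immature testes lay between −3.36 and −1.46. The pubertal fish were thus on either side of the immature range, and the group difference of 0.45 describes none of them. In the same order of fish, bag5-like was −4.71, −4.08, −3.01, −0.67, 0.23 and 0.91, and −5.79 to −3.78 in immature testes. ATG9A LOC106599848 was −4.29, −4.21, −4.61, −1.0, −0.38 and 0.09, and −5.86 to −3.38 in immature testes. For these 2 probes the difference between groups came from fish 211, 245 and 202, while fish 213 and 184 lay within the immature range.

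The anti-apoptotic faim2a had levels of −1.08, −1.46 and −2.12 in fish 213, 184 and 190 and of 0.84, 1.21 and 1.0 in fish 211, 245 and 202, and immature testes lay between −4.39 and −1.75. Stk17a-like went the other way, with −2.62, −1.18 and −1.67 in fish 213, 184 and 190 and −3.36, −3.59 and −4.06 in fish 211, 245 and 202 (immature −1.42 to −0.67). The summed level of the meiotic genes sycp3 and spo11 was 3.06, 2.45 and 2.56 in fish 213, 184 and 190 and 5.30, 5.26 and 5.73 in fish 211, 245 and 202. The labelled stage did not order these values, since fish 184, 190, 211 and 245 were all labelled stage IV, whereas fish 211, 245 and 202 were those with spermatozoa by histology.

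**Figure D3:**
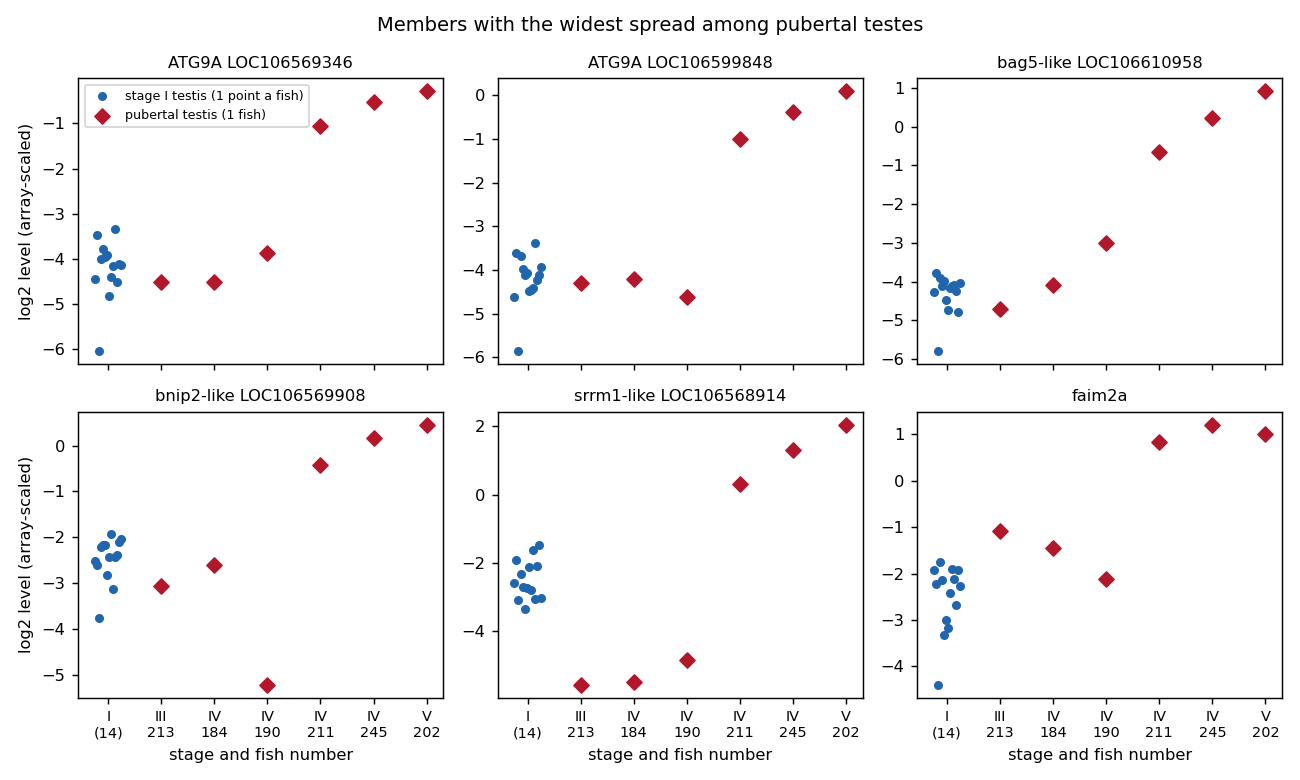
Level (log2 relative to the 75th percentile of the array, vertical axis) of 6 members with a wide spread in the 14 stage I testes and then in fish 213 (stage III), fish 184, 190, 211 and 245 (stage IV) and fish 202 (stage V), 1 point per fish. Fish 211, 245 and 202 had the highest levels in every panel, and the other stage IV fish lay near or below the stage I range in most. All 6 panels show members with a higher mean in pubertal testes. Bnip3-like (SD 1.47), which was lower in pubertal testes and varied more than faim2a (SD 1.45), is not shown. Stk17a-like (SD 1.14), also not shown, was lowest in fish 211, 245 and 202.

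Over all members fish 184 was most often the pubertal fish nearest to the immature mean, in 51 probes (49.5%, against 36.9% of 21817 probes past the limit of 0.8), followed by fish 190 in 26. By histology the dominant germ cells were type B spermatogonia in fish 184 and spermatocytes in the other pubertal fish. The stage V fish 202 was most often the farthest, in 39 probes (37.9% against 33.3%). Among the immature fish, 160 lay beyond all others towards the pubertal fish in 39 probes (37.9%, against 32.9% of the probes past the limit) and at the opposite end in 25, so that it stood at both extremes of the immature range. It was farthest from the others in bnip3-like, at −0.69 where fish other than 160 and 250 lay between 1.38 and 2.12, in cideb (−1.82, others −0.24 to 0.66) and in ZNF395-like LOC106567335 (−0.63, others 0.91 to 1.94). The testis array of fish 160 had 66.5% of spots well above background, the lowest share among the immature testes. Its summed adipose markers were 6.3, against 3.81 to 4.49 in the other immature testes. The part of either in the extremes of this fish was not tested. Fish 203 lay beyond the others in 17 probes (16.5% against 13.1%) and fish 250 in 5 (4.85% against 4.85%).

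The late pubertal testis (stage V, fish 202) was compared with the 5 earlier ones (stages III and IV) with limma. The lone fish labelled stage V was assumed to vary like the others, and fish 211 and 245 of the earlier group had spermatozoa as well. No probe was called, of the members or of all probes (0%), but with 1 fish at stage V this count says little, and the values are given as a description. At an unadjusted p under 0.05 there were 3 of 103 members (2.91%, against 16.7% of all probes). They were BAX-like LOC106601126, at 0.16 in fish 202 and −2.21 to −1.22 in the earlier fish (difference 1.74, SE 0.531, adjusted p = 0.184), PIDD1-like, at 0.38 and −1.65 to −0.33 (1.71, adjusted p = 0.231), and bcl6b, at 0.27 and 1.59 to 2.05 (−1.46, adjusted p = 0.187). In each the stage V fish lay outside the range of the earlier fish, as it did in 44 of 103 members and in 53.9% of all probes.

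The pituitary, which releases the gonadotropins that act on the testis, was compared between 5 pubertal and 14 immature fish. Of 102 members tested 1 was called, stk17a-like, against 0.304% of all probes in either direction and 0.273% higher (limma with Benjamini-Hochberg adjustment over all probes). This kinase of the death-associated protein kinase family averaged −4.87 ± 1.33 in pubertal (SD, n = 5) and −7.15 ± 0.62 in immature pituitaries (SD, n = 14), a difference of 2.28 (SE 0.414, adjusted p = 0.0196). It was at −7.00 in fish 213, −4.57 in fish 190, −4.66 in fish 211, −3.34 in fish 245 and −4.80 in fish 202, and at −8.07, −7.28 and −5.77 (lowest, median and highest) in immature fish. Of the pubertal fish 4 lay above all immature ones, and fish 213 did not. It was well above background in 4 of 5 pubertal and 1 of 14 immature pituitaries, so the immature levels lay near the lower end of the measurable range. It thus passed the filter on dim probes mainly through the group in which it was high, and its call is given as a description of these arrays. In the testes of the same fish stk17a-like was lower in pubertal fish, and the difference between the tissues was not tested.

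The call for stk17a-like was lost with the scan day as a block (2.12, adjusted p = 0.211), where all pubertal pituitaries were from day 1 and 8 of 14 immature ones from day 2, and with normexp background correction (0.136, adjusted p = 0.966, the highest over all alternatives). It was also lost without fish 190 (2.20, adjusted p = 0.0881), 245 (1.89, adjusted p = 0.0688), 202 (2.26, adjusted p = 0.0672) or 211 (2.22, adjusted p = 0.098), and without immature fish 233 the probe did not pass the filter on dim probes. Summed testis markers in the pubertal pituitaries were low, −3.48 to −3.08, against −3.95 to −2.76 in immature ones.

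**Figure D4:**
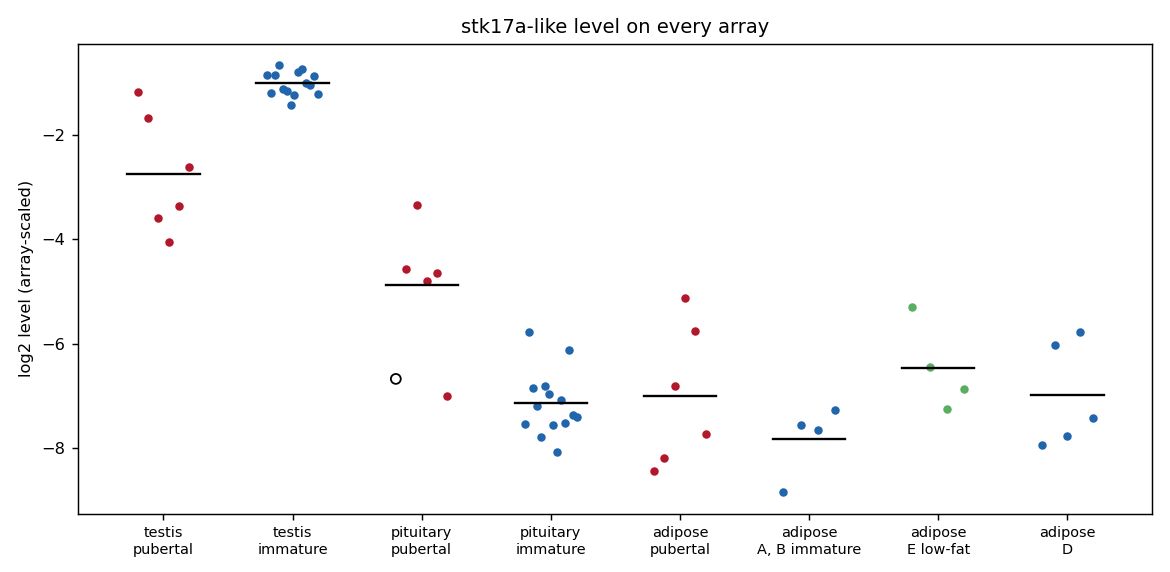
Level of stk17a-like (log2 relative to the 75th percentile of the array, vertical axis) on all arrays by tissue and group, 1 point per fish, with a bar at the mean and the left-out pituitary of fish 184 as an open circle. In the testis 5 of 6 pubertal fish lay below all immature fish, and 4 of 5 pubertal fish lay above immature fish in the pituitary.

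The other members were close to 0 in the pituitary. Their median difference with stk17a-like included was 0.00598 (−0.00926 for all probes), and 8 of 102 had an unadjusted p under 0.05 (7.84%, against 5.45% of all probes), 7 higher and 1 lower (3.14% and 2.31% of all probes). After stk17a-like the largest were heme-binding protein 2-like (1.0, adjusted p = 0.443), phlda2 (0.95, adjusted p = 0.284) and gulp1a LOC106575714 (0.69, adjusted p = 0.518), none past the threshold.

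Adipose tissue, the lipid store that also holds many immune cells, was compared between 6 pubertal and 4 immature fish of groups A and B in a limma fit blocked on light. No member was called, and neither was any other probe (0%). Of 101 members tested 7 had an unadjusted p under 0.05 (6.93%, against 7.61% of all probes). The smallest p was for ATG9A LOC106569346, which was at −3.23 (fish 184), −2.74 (190), −3.58 (245), −1.80 (202), −2.10 (211) and −2.20 (213) in pubertal fish, and at −4.33 (188), −3.71 (250), −3.33 (160) and −3.37 (203) in immature fish. The groups overlapped, and the difference of 1.08 (SE 0.273) had an adjusted p of 0.649. Without fish 202, whose array held testis markers, it was 1.0. The other ATG9A probe with a similar signal, LOC106599848, differed by 0.82, dram1-like by −1.08 and atg4a by −0.69, none past the threshold. On the adipose array of fish 202 srrm1-like was at 0.53, whereas the other pubertal fish lay between −8.22 and −4.33.

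The low-fat group E was compared with group D, both under decreasing light, in each tissue. In immature testes no member was called in limma (0% of all probes), and 5 of 103 had an unadjusted p under 0.05 (4.85%, against 2.69% of all probes), the largest difference being 0.78 in heme-binding protein 2-like. In the pituitary no member was called (0% of all probes), and 5 of 100 had an unadjusted p under 0.05 (5%, against 17.9%). ATG9A LOC106569346 was lower in pituitaries of group E, with −4.86, −4.17 and −3.92 (lowest, median and highest) against −3.82, −3.42 and −2.45 in group D. These groups did not overlap (4.99% of all probes did not), but the difference of −1.04 had an adjusted p of 0.133. With normexp correction it was −0.405. Of the 4 ATG9A probes, only this 1 had groups without overlap or an unadjusted p under 0.05. All group E pituitaries were scanned on day 2, and those of fish 176 and 180 of group D on day 1.

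In adipose tissue of groups E and D no member passed the threshold (0% of all probes), the smallest adjusted p being 0.129, and 33 of 98 members tested had an unadjusted p under 0.05 (33.7%, against 20.1% of all probes), 10 higher and 23 lower in group E (7.92% and 12.2% of all probes). In 15 members the groups did not overlap, against 7.09% of all probes. Dapk2-like was at −2.94, −3.48, −2.46 and −2.31 in fish 211, 233, 236 and 240 of group E, and at −1.32, −1.22, −1.26, −1.51 and −1.88 in the 5 fish of group D (difference −1.36, SE 0.27). Every fish of group E thus lay below every fish of group D. The BAX relative boka was at −2.88, −2.96, −2.11 and −2.82 in group E and at −1.12, −0.40, −1.43, −1.82 and −1.27 in group D (−1.48, SE 0.305). The autophagy gene rubcnl was at −0.78, −0.92, 0.42 and −0.25 in group E and at 1.53, 1.33, 1.18, 1.27 and 0.55 in group D (−1.55, SE 0.313), also without overlap. Between the 2 fish of group E and the 4 of group D scanned on day 2, these differences were −1.64 for dapk2-like, −1.34 for boka and −1.58 for rubcnl. With normexp correction they were smaller, −0.392 for dapk2-like, −0.475 for boka and −1.03 for rubcnl. PIDD1-like was the reverse, at 0.61, 1.01, 0.01 and 0.62 in group E and at −0.67, −0.42, −0.58, −1.59 and −0.91 in group D (1.39).

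By role, all 6 engulfment probes and 12 of 17 caspase and platform probes were lower in group E (medians −0.862 and −0.53). Of the BCL2 family probes 9 of 13 were higher (median 0.263). Of all 103 members 65 were lower in group E. The median of all probes was −0.108, but the share of them that was lower was not counted, so these counts by role are a description. The engulfment probes elmo1 and LOC106570440, which the study's list gives the same locus, gave nearly the same signal. Elmo1 differed by −0.97, gulp1a LOC106575714 by −1.11 and vmp1 by −0.87. Of the members that were lower in pubertal testis, 3 were higher and 18 lower in group E at an unadjusted p under 0.05, and of those that were higher in pubertal testis 7 were higher and 5 lower. The testis contrast had chosen these members, and all probes were not split in this way, so nothing is read from these counts. The summed level of leukocyte probes lay between 6.51 and 7.63 in group E and between 7.74 and 8.48 in group D. It came mostly from cd74a, which averaged 7.02 and 7.89. The other leukocyte probes were also lower in group E: ptprc averaged 2.75 and 3.87, and the cd8a probes −2.54 and −1.88, and −2.28 and −1.38. The widest gap was in mpx, at −3.17 and 1.54, which was well above background on 2 of 4 arrays of group E. No leukocyte probe was called, but neither was any other probe in this fit. The summed level of proliferation genes lay between 2.07 and 2.43 in group E and 2.60 and 3.72 in group D. The part of these markers in the members' differences was not tested.

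Summed pituitary markers were highest on the array of fish 236 of group E (5.99). They were 1.79 in fish 233, 0.726 in fish 211 and −2.31 in fish 240 of group E, and −2.56 to −0.777 in group D. Leaving out fish 236 thus did not remove the raised markers from group E, and their part in the calls was not tested. The arrays also differed in brightness. Spots well above background were 51.1% in fish 211, 65.9% in fish 233, 65.3% in fish 240 and 69.8% in fish 236 of group E. In group D they were 55.1% to 77.6%. Leaving out fish 236 thus left the dimmer arrays of group E, and the part of brightness in the differences and calls was not tested. Without fish 236, 7 of 98 members were called (7.14%, against 3.91% of all probes), 1 higher (1.54% of all probes) and 6 lower (2.38%). Those were rubcnl (−1.82, adjusted p = 0.0342), boka (−1.68, adjusted p = 0.0378), PIDD1-like (1.58, adjusted p = 0.0379), dapk2-like (−1.47, adjusted p = 0.0429), the endosomal protein gene pkhf1 (−1.91, adjusted p = 0.0429), vmp1 (−1.14, adjusted p = 0.0437) and elmo1 (−1.14, adjusted p = 0.0493). With any other fish of these groups left out in turn 0 members were called. Over all limma alternatives the adjusted p lay between 0.0429 and 0.792 for dapk2-like, between 0.0342 and 0.558 for rubcnl and between 0.0378 and 0.7 for boka.

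**Figure D5:**
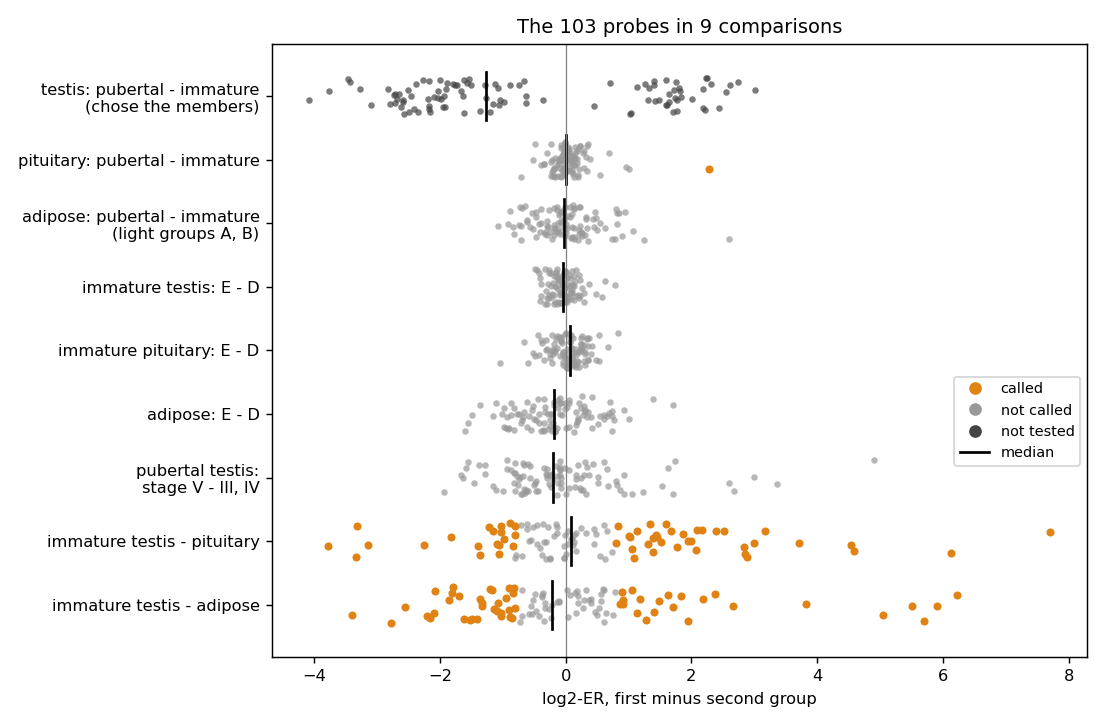
Difference between groups (log2, horizontal axis) of the 103 probes in 9 comparisons, 1 point per probe, with a bar at the median. Orange points passed the threshold, grey points did not, and dark points (pubertal minus immature testis) were not tested. Outside the testis and the comparisons between tissues, 1 probe was called, in the pituitary.

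Levels were compared between tissues of immature fish. The same immature testes had entered the choice of the probes. Between immature testis and pituitary 55 of 103 members were called (53.4%, against 50.5% of all probes), 35 higher and 20 lower in testis, against 23% and 27.4% of all probes. CD109, a membrane-anchored coreceptor of transforming growth factor beta, averaged 1.07 ± 0.317 in testis and −6.65 ± 0.792 in pituitary (SD, n = 14 each), a difference of 7.71. Stk17a-like averaged −1.01 ± 0.221 in testis and −7.15 ± 0.622 in pituitary (6.14). CD109 was well above background in 3 of 14 pituitaries and stk17a-like in 1 of 14, whereas both were measured in every testis. For both the pituitary level was thus close to the lower end of the range. Both passed the filter on dim probes mainly through the testes, where they were high, and their differences are given as a description. With normexp correction the differences were 3.3 for CD109 and 1.69 for stk17a-like. Lower in testis were speg (−3.78), prune2-like (−3.33) and tmem59l (−3.32), each measured in all pituitaries. The split of the calls depended on the scaling: with the authors' processed values 43 members were higher and 8 lower in testis, and the median over all probes was 0.244 instead of −0.146.

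Between immature testis and adipose tissue of 12 fish with a stage I testis 56 members were called (54.4%, against 56.3% of all probes), 23 higher and 33 lower in testis (25.9% and 30.4% of all probes). Stk17a-like was not well above background on any of the 12 adipose arrays. Its level in testis was at least 21.8-fold higher (measured means −1.01 in testis and −7.24 in adipose tissue). It passed the filter on dim probes through the testes alone, and the difference is given as a description. The bound sets the mean of the testes against the lowest signal well above background on each adipose array. With normexp correction, whose offset also raises the dim signals, the difference was 1.25, which is less than this bound. Heme-binding protein 2-like was higher in testis by 5.91 and cideb by 5.71, and with normexp correction by 1.75 and 2.04. Their measured means in adipose tissue were −5.89 and −5.57. Both lay below −5.46, the mean of the lowest signals well above background on these arrays, so the sizes of these differences are not settled. Lower in testis were CARD10-like (−3.40), PIDD1-like (−2.77) and rubcnl (−2.55). With the scan day as a block PIDD1-like differed by −1.38 and was no longer called (adjusted p = 0.199). With the authors' processed values 69 members were higher and 3 lower in testis, where the median over all probes was 1.21.

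Immature testis was called above both other tissues in 12 members (11.7%, against 13.1% of all probes tested in both comparisons) and below both in 7 (6.8%, against 11.3%). By mean level in immature fish, 28 members were highest in testis, 34 in pituitary and 41 in adipose tissue (29.6%, 33.2% and 37.3% of all probes). This tally depended on the scaling, since the authors' own normalised values gave 65 in testis, 28 in pituitary and 10 in adipose tissue. Relative to the 75th percentile, stk17a-like, CD109, cideb, cidea and srrm1-like were highest in testis, and tmem59l, speg, prune2-like and heme-binding protein 2-like in pituitary. Rubcnl, CARD10-like and PIDD1-like were highest in adipose tissue. Of these, PIDD1-like was higher in pubertal than in immature testis, whereas rubcnl and CARD10-like were lower in pubertal testis. Heme-binding protein 2-like averaged −4.06 in pubertal testis, 0.0177 in immature testis, 1.38 in immature pituitary and −5.89 in adipose tissue.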

How the data were processed

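RNA of testis, pituitary and adipose tissue was hybridised to 59 one-colour Agilent arrays (20 fish with testis arrays, 16 slides, 4 scan days), 1 fish and tissue per array. The authors deposited the scanner output of Feature Extraction 12.0.1.1: an intensity per spot, background-subtracted and detrended within the array but not scaled between arrays, and 0 or 1 marks (other) for outliers, saturation and signal well above background. A second deposited table holds the authors' processed intensities, on a linear scale with unstated normalization, whose log2 medians were 5.21 to 6.91 in testis, 5 to 7.28 in pituitary and 4 to 5.78 in adipose tissue and which correlated with the scanner values at 0.981 to 0.998.

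Of 43855 spots, 42438 were not controls and stood for 42386 probes (52 in duplicate, averaged). Outlier spots were left out, and log2 intensity minus the 75th percentile of the array was used. The number of arrays limits the precision. Fits used limma 3.58.1 (lmFit, eBayes, two-sided) and the data.table package, version 1.17.8, in R 4.3.3, with Benjamini-Hochberg adjustment over all probes tested. A probe was tested if the number of arrays with a signal well above background reached the size of the smaller group. Called means an adjusted p under 0.05 together with a difference beyond 0.8 on the log2 scale (1.741-fold).

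Members came from the 1499 lines of the supplementary list at hand, and 74 of 103 matched a RefSeq gene by accession (24 of them to a named symbol, assembly Ssal_v3.1). The entry the list calls POP1 is skp2 in RefSeq and is given as skp2. Members, lists and tests were chosen with earlier results of these data known. Named were the 5 largest rises and falls without overlap in testis, all members called elsewhere or else the 3 with the smallest p, families, members next to the limit, the 3 largest and smallest tissue differences and the 3 farthest in fish 160 or 250. Other members were named by role after their values were seen. A few members and other genes that the rules would name are not reported here by name.

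Testis and other tissues of 1 fish are paired by the fish. Deviations from the group means of the same fish correlated at −0.0668 to 0.266 between testis and pituitary (14 pairs) and at −0.178 to 0.336 between testis and adipose tissue (12 pairs). Each fit was tested on simulated data with 200 probes changed by 2: it found 91.5% in testis, 89.5% in pituitary and 29% in adipose tissue of pubertal and immature fish, 88%, 82.5% and 61.5% between groups E and D in testis, pituitary and adipose tissue, 0% for stage V, and 99.5% and 93% between testis and pituitary or adipose tissue.

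Alternatives were normexp background correction (offset 50), quantile and median scaling, the authors' processed values, stricter and no filters on dim probes, slide and scan day as blocks, fish as a block, the methods' t-test and the leaving out of fish. The values within a scan day, the testis values without fish 184 and the scaling of the tally of tissues were added after seeing the data. So were the adipose fit without fish 160 and 250 and the pituitary fit without them and with the scan day as a block. The fit without a fish block in fish with both tissues was also added then.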

Additional observations from a re-analysis of the deposited data

Results flagged for a closer look

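Among 79 sets of 4 to 10 fish looked at for the named members, 6 had 1 fish far from the others, where chance gives about 1 in 20. In all 6 pubertal testes 3 of them were fish 184: bnip3a LOC106579879 was at 3.08 (others −0.26 to 0.58), cideb at −0.0449 (others −3.35 to −2.22) and ZNF395-like LOC106567335 at 0.389 (others −2.84 to −2.05). In these this fish lay nearer to the immature testes than the other pubertal fish did. Its testis array was the only pubertal one of scan day 4. By the study's histology it was also the only pubertal testis in which type B spermatogonia were the dominant germ cells. The part of either in these values was not tested. Among the 5 testes labelled stage III or IV fish 184 was also apart in PIDD1-like, at −0.335 (others −1.65 to −1.49), but fish 202, labelled stage V, was at 0.38. In the testes of group D heme-binding protein 2-like was at 0.743 in fish 198 and between −0.890 and −0.607 in the others. In adipose tissue of group E boka was at −2.11 in fish 236 and between −2.96 and −2.82 in the others.

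In several named members every pubertal adipose sample, or every pubertal pituitary used in the fits, lay on one side of the immature mean. Every pubertal testis lay on the other side. This difference between tissues was not tested, and the pattern was not counted over all probes. In the pituitary and the testis the differences were 2.28 and −1.73 for stk17a-like, 0.688 and −2.18 for gulp1a LOC106575714, 0.394 and −2.17 for TRIM-7 LOC106584665, and 0.323 and −1.66 for TRIM-7 LOC106584676. They were 0.335 and −1.54 for bnip3-like and 0.299 and −3.43 for ZNF395-like LOC106567335. In adipose tissue and the testis they were 0.738 and −2.68 for ASPP1 LOC106611188 and −0.472 and 1.41 for BAX-like LOC106607327. Both tissues came from the same fish. For stk17a-like the immature pituitaries averaged −7.15, near the lower end of the measurable range. With normexp correction its pituitary difference was 0.136.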

How the results depend on the processing

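In the testis the number of members beyond 0.8 (96) stayed within 1.5 times under all 33 alternatives, with 93 for normexp and 94 to 100 with 1 fish left out, and all 103 kept their sign with the authors' values, where the median of all probes was −0.142. Within scan day 4 (1 pubertal fish) 73 members were beyond 0.8 and 93 of 103 kept their sign. Of the named members beyond 0.8 in the main fit, ATG9A LOC106569346 turned to −0.168, ATG9A LOC106574532 to 0.247, bnip3a LOC106579879 to 0.358 and cideb to 0.0155. The single call in the pituitary became 0 with normexp, quantile normalization, the strict filter, the scan day as a block, the array of fish 184, groups A and B alone or scan day 1 alone, and 2 without fish 160 and 250; leaving out 1 fish gave 0 to 1. The methods' t-test without adjustment counted 3 members in the pituitary, 3 in adipose tissue of pubertal and immature fish, and 1 and 16 between groups E and D in pituitary and adipose tissue. After Benjamini-Hochberg adjustment these were 1, 0, 0 and 0. Leaving out 1 fish gave 0 to 7 calls in adipose tissue of groups E and D (7 without fish 236). Between testis and adipose tissue 34 members were called with normexp and 24 with the scan day as a block, instead of 56. Fish as a replicate block gave 55 calls between testis and pituitary and 55 between testis and adipose tissue, and 55 and 55 without the block in the fish with both tissues. The slide as a random block could not be fitted for stage V. Of 2315 alternative values for single members, 2311 were counted as keeping their direction. In the testis this count took a change of sign only in members beyond 0.8. Named members within 0.8 also changed sign under at least 1 alternative: bnip3a LOC100194666 reached 0.424, ATG9A LOC106575328 0.175 and bnip2-like −0.0845. The array of fish 184 in the pituitary, 1 fish at stage V and dim probes such as stk17a-like limit what could be detected.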
